A study of Solanum tuberosum with 12 samples.

Results

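The transcripts described here carry product names linked to proteins that build, cut or stiffen the plant cell wall. They comprise cellulose synthases, COBRA proteins, arabinogalactan and fasciclin-like proteins, extensins, proline-rich and glycine-rich proteins, enzymes of xylan, xyloglucan side chains, mannan and callose, a few cell wall proteins of other names, and laccases. Members were picked by searching the deposited product names for these terms and leaving out names with xyloglucan or kinase. The search gave 140 transcripts of 140 genes, out of 6438 transcripts in the union of the authors' deposited lists of genes regulated at high temperature. The 8-week list of 5571 transcripts held 127 members and the 3-week list of 1447 held 26, with 13 members in both. Leaves of potato (Solanum tuberosum), cultivar Desiree, were sampled from 4 groups of 3 libraries each. HT plants were kept at 35 °C by day and 29 °C by night and NT plants at 22 °C by day and 16 °C by night, each for 8 or 3 weeks in soil. All groups shared a day of 12 h light and 12 h dark at 153 µmol m-2 s-1, a start from plantlets raised in culture, and RNA taken from the upper 5 leaves. The labels name no transgene or mutation and do not say whether the 3 libraries of a group came from separate plants, and the tests therefore measure only how these libraries vary, which may be technical variation.

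The growing plant cell wall is a network of cellulose microfibrils set in hemicelluloses and pectins, with a small share of structural glycoproteins. Cellulose is spun out at the plasma membrane by complexes of cellulose synthase subunits, and COBRA proteins, which are anchored to the membrane by a lipid, are needed for ordered cellulose deposition in Arabidopsis. Arabinogalactan proteins and extensins are rich in hydroxyproline and carry sugar chains, and extensins are cross-linked in the wall, which stiffens it. Laccases are copper oxidases, some of which couple lignin precursors in secondary walls. In leaves, wall synthesis is most active while cells divide and expand.

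Each library held between 52514661 and 66602938 counts. The deposited tables are selections: a transcript was listed where the authors' own comparison of HT with NT gave a p-value below 0.01 and a log2 change of 1.5 or more in either direction. That a listed member differs between HT and NT is therefore given by the choice, and what can be read here is direction, size and library spread. Among the members the smallest absolute log2 change in the authors' deposited table was 1.52 at 8 weeks and 1.51 at 3 weeks. Leaf mesophyll transcripts (chlorophyll-binding proteins, Rubisco and photosystem subunits) were plentiful, and the 40 listed at 8 weeks summed to 67951, 29596 and 34396 CPM (counts scaled to library total) in the HT libraries, against 10059.8, 9448 and 10739 CPM in the NT libraries. HT replicate 1 at 8 weeks stood apart from the other HT libraries in many of the members, and NT replicate 3 at 8 weeks and NT replicate 1 at 3 weeks stood apart from the other NT libraries of their age. The chi-square per degree of freedom between the counts of 2 libraries was 757 and 579.8 for that HT library against the other 2 (156.5 between those), 351.8 and 348.4 for NT replicate 3 at 8 weeks (94.1 between the other 2), and 209.8 and 234.8 for NT replicate 1 at 3 weeks (32.9 between the other 2). NT replicate 1 at 3 weeks was the highest NT library for 6 of the 7 listed extensins, and lowest in the sum of the 2 arabinogalactan members, at 219.6, 437 and 455 CPM. For many of the named members in which these libraries stood apart, results are given with and without them. In whole leaves, fewer cells of a type and less RNA per cell cannot be told apart.

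At 8 weeks most wall members were higher in HT leaves. Of the 127 listed, 116 had enough counts to be tested, and 88 were higher and 26 lower in HT leaves (edgeR's quasi-likelihood test with Benjamini-Hochberg adjustment over all 5176 listed transcripts tested, adjusted p under 0.05). Another 2 did not pass and 11 were not tested. In the same test 97.3% of all listed transcripts passed, 59.3% higher and 38% lower, so the members' share of calls is near that of the list, while the share of tested members that were higher was 75.9%. The median log2 change of HT over NT was 2.63 over the tested members and 1.80 over all listed transcripts. The libraries of the 2 temperatures did not overlap in 88 members with HT above NT and in 27 with HT below NT, against 57.3% and 36.2% of all listed transcripts. With DESeq2's size factors, under which the median log2 change of all listed transcripts was 0.47, 54 members were higher and 28 lower. Beside these counts, 22.8% of all listed transcripts were then higher and 40.7% lower. Members made up 1.91%, 1.06% and 1.12% of all counts in the HT libraries, against 0.322%, 0.339% and 0.367% in the NT libraries.

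**Figure D1:**
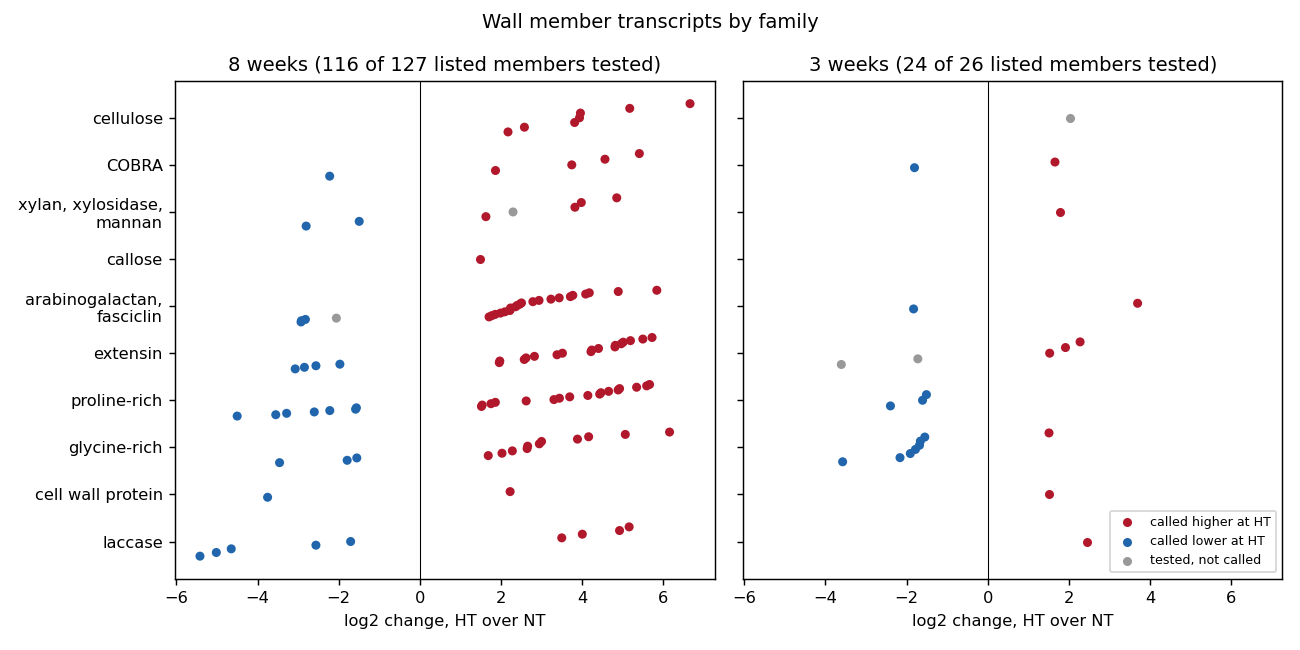
Log2 change of HT over NT (horizontal axis) for each tested wall member, in rows by family, at 8 weeks on the left and 3 weeks on the right. Each point is 1 transcript, red where called higher at HT, blue where called lower and grey where tested but not called. At 8 weeks most points lie on the right, with 88 of the 116 called higher and laccases on both sides, and at 3 weeks 9 are called higher and 12 lower, with 7 of the 8 glycine-rich members among the lower ones.

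All 7 transcripts with cellulose in their name were higher in HT leaves at 8 weeks, with log2 changes from 2.17 to 6.66 and no overlap between the groups in any of them. Over the whole list, 59.3% of the transcripts tested were called higher, and 57.3% of those listed had HT above NT without overlap. Levels here and below are RPKM (reads set against transcript length and library total) in replicates 1, 2 and 3, in that order, and changes are log2 of HT over NT ± standard error. Cellulose synthase PGSC0003DMG400011752 had 306, 371 and 361 RPKM in HT leaves, against 3.39, 2.94 and 3.93 RPKM in NT leaves, a mean of 346 ± 35.3 RPKM in HT leaves and 3.42 ± 0.498 RPKM in NT leaves (SD, n = 3 each). Its HT libraries were close to each other and far above the NT libraries (log2 6.66 ± 0.45, adjusted p = 0.00031). The cellulose synthase catalytic subunit PGSC0003DMG400006660 was the cellulose member of highest level in NT leaves, with 53, 49 and 53.1 RPKM in HT leaves, against 11.7, 10.2 and 12.5 RPKM in NT leaves (log2 2.17 ± 0.35, adjusted p = 0.0018). Its change was smaller, and the 3 libraries of each group again lay close together. Cellulose synthase catalytic subunit PGSC0003DMG400028426 had 1.72, 0.269 and 1.14 RPKM in HT leaves, against 0.0939, 0.0629 and 0.0429 RPKM in NT leaves (log2 3.96 ± 0.81, adjusted p = 0.0034). In Arabidopsis, proteins of the cellulose synthase-like A family make the mannan backbone. The 2 listed transcripts of that name both rose. PGSC0003DMG400028267 had 6.89, 2.64 and 4.48 RPKM in HT leaves, against 0.298, 0.218 and 0.398 RPKM in NT leaves (log2 3.94 ± 0.56, adjusted p = 0.0014). PGSC0003DMG400002722 had 7.62, 1.61 and 1.83 RPKM in HT leaves, against 0.145, 0.0636 and 0.0970 RPKM in NT leaves (log2 5.17 ± 0.83, adjusted p = 0.0018), and its log2 change was 4.08 (adjusted p = 0.0013) without HT replicate 1, where it was highest. With DESeq2's size factors 5 of the 7 were still called higher, and the catalytic subunit of highest NT level was not. Without HT replicate 1 the call was lost in 1 of the 7, cellulose synthase A catalytic subunit PGSC0003DMG400031800, chosen after its values were seen, which also missed without NT replicate 3 (adjusted p = 0.054) and whose log2 change was 3.82 ± 1.18 with all libraries and 1.26 without HT replicate 1 (adjusted p = 0.086).

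COBRA transcripts were low in every group and mostly higher in HT leaves, with 4 of the 5 tested called higher and 1 lower. For comparison, 59.3% of all listed transcripts tested were called higher and 38% lower. PGSC0003DMG400002075 had 1.81, 1.13 and 1.82 RPKM in HT leaves, against 0.146, 0.0981 and 0.109 RPKM in NT leaves (log2 3.75 ± 0.56, adjusted p = 0.0015). PGSC0003DMG400032772 had 2.87, 0.240 and 1.19 RPKM in HT leaves, against 0, 0.0511 and 0.0425 RPKM in NT leaves (log2 5.41 ± 1.20, adjusted p = 0.0044). PGSC0003DMG400001031 had 1.88, 0.384 and 0.659 RPKM in HT leaves, against 0.104, 0.0191 and 0 RPKM in NT leaves (log2 4.56 ± 1.18, adjusted p = 0.0075). In each of these the HT libraries lay above the NT libraries, but the HT values of the last 2 spread widely with replicate 1 highest. Without it their log2 changes were 4.40 and 3.67, and without NT replicate 1 that of PGSC0003DMG400001031 was 6.46. The fourth that was called higher, PGSC0003DMG400001465, chosen after its values were seen, overlapped between the groups (log2 1.87 ± 0.81, adjusted p = 0.049) and, of the fits that leave out 1 library each, passed only in the one without HT replicate 2. One COBRA transcript, PGSC0003DMG400024530, went the other way, with 0.0616, 0.106 and 0.119 RPKM in HT leaves, against 0.348, 0.554 and 0.449 RPKM in NT leaves (log2 -2.22 ± 0.59, adjusted p = 0.0084).

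Arabinogalactan and fasciclin-like proteins formed a large family, with 22 of 26 listed transcripts higher in HT leaves at 8 weeks, 3 lower and 1 not called. Of all listed transcripts tested, 59.3% were called higher and 38% lower. The 10 fasciclin-like proteins, which carry adhesion domains and in many cases a membrane anchor, were higher without exception among those listed, with log2 changes from 1.86 to 4.89, and their levels summed to 407 RPKM in HT leaves and 57.9 RPKM in NT leaves (group means). The groups overlapped in 1 of them, PGSC0003DMG400035592, chosen after its values were seen, which had 1.21, 37.7 and 5.55 RPKM in HT leaves, against 2.22, 1.44 and 4.17 RPKM in NT leaves (log2 2.51 ± 1.09, adjusted p = 0.049) and a log2 change of 0.37 (adjusted p = 0.65) without HT replicate 2, and did not pass without any 1 of the NT libraries either (largest adjusted p = 0.14). Fasciclin-like arabinogalactan protein 13 PGSC0003DMG400012749 had 65.2, 17.8 and 21.3 RPKM in HT leaves, against 1.05, 0.889 and 1.58 RPKM in NT leaves (log2 4.89 ± 0.65, adjusted p = 0.0012). Fasciclin-like arabinogalactan protein 2 PGSC0003DMG400006160 had 76.6, 23.8 and 36.7 RPKM in HT leaves, against 2.22, 2.09 and 3.74 RPKM in NT leaves (log2 4.09 ± 0.58, adjusted p = 0.0014). Fasciclin-like AGP 13 PGSC0003DMG400008063 had 4.99, 0.899 and 1.82 RPKM in HT leaves, against 0.165, 0.0681 and 0.189 RPKM in NT leaves (log2 4.18 ± 0.85, adjusted p = 0.0034). HT replicate 1 was the highest library for all of these, and without it the log2 changes were 4.06, 3.49 and 3.26, still past the threshold. The classical arabinogalactan protein 26 PGSC0003DMG400031864 had the largest rise of the family, with 26.4, 11.9 and 15.1 RPKM in HT leaves, against 0.435, 0.190 and 0.304 RPKM in NT leaves (log2 5.84 ± 0.61, adjusted p = 0.00064). All 3 HT libraries were far above the NT values. The highest level belonged to the methionine rich arabinogalactan PGSC0003DMG400026224, with 762, 278 and 405 RPKM in HT leaves, against 136, 136 and 149.8 RPKM in NT leaves (log2 1.78 ± 0.46, adjusted p = 0.0073). Its log2 change was 1.28 without HT replicate 1 (adjusted p = 0.0053), and it was not called with DESeq2's size factors (adjusted p = 0.41). With DESeq2's size factors 9 members of the family were called higher and 4 lower, beside 22.8% and 40.7% of all listed transcripts. PGSC0003DMG400026274, PGSC0003DMG400024948 and PGSC0003DMG400019380, called higher and chosen after their values were seen, lost the call without HT replicate 1. Their log2 changes of 3.77, 1.99 and 3.23 became 0.70, 0.71 and 1.92 (adjusted p = 0.27, 0.14 and 0.089), and the groups overlapped in the second.

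The 3 arabinogalactan-proteins that were lower shared a product name and a pattern across the libraries. PGSC0003DMG400017772 had 6.76, 11.4 and 49.3 RPKM in HT leaves, against 94.1, 202 and 214 RPKM in NT leaves (log2 -2.92 ± 0.78, adjusted p = 0.0082). PGSC0003DMG400017758 had 4.73, 8.67 and 36.6 RPKM in HT leaves, against 68.9, 128 and 156 RPKM in NT leaves (log2 -2.82 ± 0.77, adjusted p = 0.0092). PGSC0003DMG400017771 had 1.32, 1.24 and 6.15 RPKM in HT leaves, against 11.9, 25.2 and 29.1 RPKM in NT leaves (log2 -2.93 ± 0.75, adjusted p = 0.0070). In each the HT libraries stayed below the NT libraries, HT replicate 3 was the highest of the HT libraries and NT replicate 1 the lowest of the NT libraries. Without HT replicate 3 the log2 changes were -4.22, -4.13 and -4.11. How the authors counted reads that match several near-identical genes is not given in the sources used here, so transcripts of 1 product name may share reads. Arabinogalactan peptide 22 PGSC0003DMG400000317 also had its HT libraries below its NT libraries, with 0.825, 3.84 and 14.8 RPKM in HT leaves, against 19.5, 21.7 and 39.6 RPKM in NT leaves, and did not pass the threshold (log2 -2.06 ± 0.90, adjusted p = 0.0502). It passed without HT replicate 3, with a log2 change of -3.53 (adjusted p = 0.0056), and also with DESeq2's size factors (adjusted p = 0.016), DESeq2's Wald test (adjusted p = 0.022) and a replicate block (adjusted p = 0.0091).

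Extensins were the family with the most listed members, 28, of which 21 were tested, 17 higher and 4 lower in HT leaves. The split was 13 higher and 4 lower with DESeq2's size factors. Among all listed transcripts tested, 59.3% were higher and 38% lower, and 22.8% and 40.7% with the size factors. Several extensins were among the most abundant wall transcripts of HT leaves. Extensin PGSC0003DMG401032203 had 1094, 1417 and 1193 RPKM in HT leaves, against 41.5, 35.7 and 119 RPKM in NT leaves (log2 4.24 ± 0.59, adjusted p = 0.0013). Extensin PGSC0003DMG400000776 had 1188, 586 and 319 RPKM in HT leaves, against 11.9, 20.3 and 25.1 RPKM in NT leaves (log2 5.19 ± 0.65, adjusted p = 0.0010). The groups were far apart in both, and in the first the spread lay in the NT libraries, with NT replicate 3 highest and a log2 change of 5.0 without it. In the second it lay in the HT libraries, with a log2 change of 4.57 without HT replicate 1. A transcript named for the pollen Ole e 1 allergen and extensin family, PGSC0003DMG400001380, had 677, 604 and 403 RPKM in HT leaves, against 11.6, 8.90 and 11.4 RPKM in NT leaves (log2 5.72 ± 0.47, adjusted p = 0.00037), the largest rise among the 21 tested extensins. The authors' deposited table gives larger rises for 3 of the 7 that had too few counts to be tested here.

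The name extensin class 1 protein stood for 5 listed transcripts, of which 4 were tested and higher, and HT replicate 1 was the highest HT library in all of them by varying amounts. PGSC0003DMG400034808 had 54.1, 1.94 and 3.28 RPKM in HT leaves, against 0.379, 0.446 and 0.486 RPKM in NT leaves (log2 5.50 ± 1.29, adjusted p = 0.0054). PGSC0003DMG402019930 had 23.2, 1.01 and 1.17 RPKM in HT leaves, against 0.189, 0.195 and 0.388 RPKM in NT leaves (log2 5.01 ± 1.36, adjusted p = 0.0088). Their HT libraries all lay above NT, but replicate 1 was many times the other 2, and without it the log2 changes were 2.57 (adjusted p = 0.0025) and 2.06 (adjusted p = 0.025). The other two tested, chosen after their values were seen, were less uneven. PGSC0003DMG403017980 had 25, 2.58 and 4.45 RPKM in HT leaves, against 0.359, 0.360 and 0.305 RPKM in NT leaves (log2 4.96 ± 0.91, adjusted p = 0.0025), and a log2 change of 3.36 (adjusted p = 0.0012) without HT replicate 1. PGSC0003DMG400004675 had 4.80, 1.41 and 2.07 RPKM in HT leaves, against 0.343, 0.472 and 0.572 RPKM in NT leaves (log2 2.57 ± 0.59, adjusted p = 0.0050), and 1.91 (adjusted p = 0.0062) without it. The cysteine-rich extensin-2 transcripts moved the other way, 3 of 3 lower with no overlap between groups, beside 36.2% of all listed transcripts with HT below NT. PGSC0003DMG400013081 had 0.176, 0.396 and 0.0781 RPKM in HT leaves, against 1.56, 1.56 and 2.40 RPKM in NT leaves (log2 -3.07 ± 0.71, adjusted p = 0.0052), and its log2 change was -3.84 without HT replicate 2. PGSC0003DMG400002456 had 1.25, 2.30 and 2.42 RPKM in HT leaves, against 10.3, 8.12 and 16.8 RPKM in NT leaves (log2 -2.56 ± 0.50, adjusted p = 0.0030). PGSC0003DMG400032282 had 0.594, 1.05 and 0.779 RPKM in HT leaves, against 3.07, 2.64 and 3.79 RPKM in NT leaves (log2 -1.97 ± 0.49, adjusted p = 0.0066). All 3 libraries of HT leaves were low for each of these. The fourth lower extensin, PGSC0003DMG400000794, had 3.11, 5.03 and 3.49 RPKM in HT leaves, against 22.9, 26.7 and 34.1 RPKM in NT leaves (log2 -2.84 ± 0.45, adjusted p = 0.0017). The 7 extensins with too few counts to be tested had means of at most 1.18 RPKM in HT leaves, and the groups overlapped in 2 of them. Of these, PGSC0003DMG402017980, chosen after its values were seen, had 55 counts in HT replicate 1 and 0 counts in every other library, which over the group is at least 17.3-fold higher in HT leaves against a floor of 3 counts, a value that rests on that library.

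Proline-rich proteins, repetitive proteins that become insoluble in the wall, held the highest levels of all members. Of 25 listed at 8 weeks, 24 were tested, 17 higher and 7 lower, and 12 were higher and 7 lower with DESeq2's size factors. The shares over all listed transcripts tested were 59.3% higher and 38% lower, and 22.8% and 40.7% with the size factors. Proline-rich protein PGSC0003DMG400002880 had 4239.7, 1158 and 1376 RPKM in HT leaves, against 70.7, 66.5 and 86.1 RPKM in NT leaves (log2 4.92 ± 0.65, adjusted p = 0.0011). It supplied 16.9% of the members' summed CPM in HT leaves. Proline-rich protein PGSC0003DMG400029569 had 1832, 1351 and 1332 RPKM in HT leaves, against 101, 97.4 and 217 RPKM in NT leaves (log2 3.44 ± 0.49, adjusted p = 0.0014). Both had HT libraries far above NT, with replicate 1 highest, and the first had a log2 change of 4.09 without that library. Proline-rich protein PGSC0003DMG400013537 had 835, 192 and 171 RPKM in HT leaves, against 7.84, 8.23 and 8.76 RPKM in NT leaves (log2 5.59 ± 0.76, adjusted p = 0.0012). Proline-rich protein 1 PGSC0003DMG400029700 had 159, 4.78 and 4.01 RPKM in HT leaves, against 0.639, 1.47 and 1.20 RPKM in NT leaves (log2 5.66 ± 1.49, adjusted p = 0.0078). Each had 1 HT library well above the other 2, and without HT replicate 1 the log2 changes were 4.45 and 1.99 (adjusted p = 0.0070). Proline-rich protein PGSC0003DMG400004441 was low, with 2.62, 0.863 and 5.55 RPKM in HT leaves, against 0.0477, 0.0787 and 0.0873 RPKM in NT leaves (log2 5.34 ± 0.89, adjusted p = 0.0019), and had a log2 change of 4.55 without HT replicate 3.

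The proline-rich members that were lower included the most abundant wall transcripts of NT leaves. Proline-rich protein PGSC0003DMG400015010 had 95.2, 217 and 239.5 RPKM in HT leaves, against 869, 738 and 961 RPKM in NT leaves (log2 -2.22 ± 0.46, adjusted p = 0.0036). Adhesive/proline-rich protein PGSC0003DMG400021628 had 152, 348 and 381 RPKM in HT leaves, against 836, 692 and 1073 RPKM in NT leaves (log2 -1.56 ± 0.46, adjusted p = 0.012). These 2, chosen after their values were seen, made up 49.0% of the members' summed CPM in NT leaves, and the lowest library of each was HT replicate 1. By the naming rule the 4 largest falls were 3 hydroxyproline-rich glycoproteins, the wider class to which extensins belong, and a proline-rich cell wall protein. Hydroxyproline-rich glycoprotein GAS31 PGSC0003DMG400031105 had 0.866, 1.47 and 5.0 RPKM in HT leaves, against 56.7, 61.9 and 47.7 RPKM in NT leaves (log2 -4.50 ± 0.72, adjusted p = 0.0017). Hydroxyproline-rich glycoprotein PGSC0003DMG400030663 had 1.68, 5.06 and 3.09 RPKM in HT leaves, against 31.4, 32.7 and 31.6 RPKM in NT leaves (log2 -3.28 ± 0.50, adjusted p = 0.0016). Hydroxyproline-rich glycoprotein PGSC0003DMG400002040 had 0, 0.172 and 0.0320 RPKM in HT leaves, against 0.466, 1.25 and 0.888 RPKM in NT leaves (log2 -3.55 ± 1.0, adjusted p = 0.0099). The HT libraries lay below the NT libraries in all of them, and HT replicate 3 was the highest HT library for GAS31, whose log2 change without it was -5.56. Without HT replicate 2 that of PGSC0003DMG400002040 was -5.41. Proline-rich cell wall protein PGSC0003DMG400028901 had 10.9, 23.7 and 23.5 RPKM in HT leaves, against 137, 126 and 88.9 RPKM in NT leaves (log2 -2.60 ± 0.45, adjusted p = 0.0022). Among the 10 tested hydroxyproline-rich transcripts 6 were higher and 4 lower, and among the other 14 proline-rich transcripts 11 were higher and 3 lower. These counts stand beside 59.3% higher and 38% lower of all listed transcripts tested.

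Glycine-rich proteins are named for their composition, and some are structural proteins of vascular tissue walls. At 8 weeks 11 of 14 listed were higher in HT leaves and 3 lower, a split that became 5 higher and 3 lower with DESeq2's size factors. Over the whole list, 59.3% of those tested were higher and 38% lower, and 22.8% and 40.7% with the size factors. Glycine-rich protein PGSC0003DMG400031529 had 5.29, 0.884 and 1.06 RPKM in HT leaves, against 0.0210, 0.0346 and 0.0384 RPKM in NT leaves (log2 6.15 ± 1.02, adjusted p = 0.0019). Glycine-rich protein PGSC0003DMG400015810 had 51.4, 4.31 and 6.65 RPKM in HT leaves, against 0.662, 0.397 and 0.798 RPKM in NT leaves (log2 5.06 ± 1.05, adjusted p = 0.0035). Glycine-rich protein PGSC0003DMG400015809 had 24.2, 1.55 and 1.95 RPKM in HT leaves, against 0.542, 0.474 and 0.846 RPKM in NT leaves (log2 3.89 ± 1.12, adjusted p = 0.011). The HT libraries were above the NT libraries in each, and HT replicate 1 was by far the highest. Without it the log2 changes were 4.84, 3.14 and 1.49. The most abundant glycine-rich members were lower in HT leaves. Glycine-rich protein A3 PGSC0003DMG400031120 had 34.2, 114 and 117 RPKM in HT leaves, against 269.6, 310.0 and 199 RPKM in NT leaves (log2 -1.55 ± 0.52, adjusted p = 0.019), and did not pass without NT replicate 1 (adjusted p = 0.053) or NT replicate 2 (adjusted p = 0.063). Glycine-rich protein A3 PGSC0003DMG400031535 had 9.15, 31.1 and 23.3 RPKM in HT leaves, against 78.2, 90.9 and 50.7 RPKM in NT leaves (log2 -1.79 ± 0.52, adjusted p = 0.011). The other lower transcript, PGSC0003DMG400028817, is named as an interacting protein of a glycine-rich protein and had 3.28, 2.77 and 3.0 RPKM in HT leaves, against 27.4, 52.2 and 19.8 RPKM in NT leaves (log2 -3.46 ± 0.51, adjusted p = 0.0015).

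Enzymes of hemicellulose and callose were mixed. Of 7 tested with xylan, xylosidase or mannan in their name, 4 were higher, 2 lower and 1 not called. The whole list had 59.3% higher and 38% lower among those tested. Endo-beta-mannanase PGSC0003DMG400003521, which cuts mannan chains, had 34.4, 9.12 and 19.9 RPKM in HT leaves, against 1.41, 1.26 and 1.81 RPKM in NT leaves (log2 3.82 ± 0.57, adjusted p = 0.0015). Xylanase Xyn2 PGSC0003DMG400004955 had 5.55, 0.830 and 2.35 RPKM in HT leaves, against 0.119, 0.0777 and 0.103 RPKM in NT leaves (log2 4.85 ± 0.78, adjusted p = 0.0018), with a log2 change of 3.98 without HT replicate 1. Xylanase Xyn2 PGSC0003DMG400004954 had 0.723, 0.529 and 0.559 RPKM in HT leaves, against 0.0196, 0.0809 and 0.00897 RPKM in NT leaves (log2 3.98 ± 0.83, adjusted p = 0.0036), with a log2 change of 5.31 without NT replicate 2. The groups stood apart in all of these. Endo-1,4-beta-xylanase A PGSC0003DMG400008420 had 1.89, 1.62 and 3.15 RPKM in HT leaves, against 0.493, 0.800 and 0.862 RPKM in NT leaves (log2 1.63 ± 0.48, adjusted p = 0.012). Alpha-xylosidase PGSC0003DMG400008345, an enzyme that trims xylose from xyloglucan fragments in Arabidopsis, was lower, with 1.01, 0.599 and 0.683 RPKM in HT leaves, against 7.86, 5.69 and 2.42 RPKM in NT leaves (log2 -2.80 ± 0.56, adjusted p = 0.0031). A transcript named ethylene-inducing xylanase, PGSC0003DMG400009899, was lower too, with 0.455, 1.04 and 1.62 RPKM in HT leaves, against 2.53, 2.82 and 3.41 RPKM in NT leaves (log2 -1.49 ± 0.53, adjusted p = 0.025), and did not pass without HT replicate 2, NT replicate 2 or NT replicate 3 (largest adjusted p = 0.065). Endo-1,4-beta-xylanase A PGSC0003DMG400006180 overlapped between the groups and did not pass (log2 2.30 ± 1.10, adjusted p = 0.069), with a log2 change of 1.31 without HT replicate 1 and 2.74 (adjusted p = 0.049) without HT replicate 2.

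Callose synthase 3 PGSC0003DMG400032202, a maker of the glucan callose, had 12.9, 5.25 and 5.58 RPKM in HT leaves, against 2.24, 3.67 and 2.51 RPKM in NT leaves (log2 1.49 ± 0.47, adjusted p = 0.016). The groups did not overlap, the log2 change was 0.95 without HT replicate 1, and the call was lost without NT replicate 1 (adjusted p = 0.063) and with DESeq2's size factors (adjusted p = 0.77). Plant cell wall protein SlTFR88 PGSC0003DMG400000069 had 7.89, 18.1 and 15.7 RPKM in HT leaves, against 3.35, 2.32 and 3.25 RPKM in NT leaves (log2 2.23 ± 0.48, adjusted p = 0.0040). Another transcript of that name, PGSC0003DMG400005783, went the other way at low level, with 0, 0.105 and 0.185 RPKM in HT leaves, against 1.47, 1.14 and 1.40 RPKM in NT leaves (log2 -3.75 ± 0.97, adjusted p = 0.0075), and its log2 change was -4.57 without HT replicate 3.

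Laccases split nearly evenly, with 4 of 9 tested higher and 5 lower in HT leaves at 8 weeks. All listed transcripts tested had 59.3% higher and 38% lower. Laccase PGSC0003DMG400003512 had 10.7, 1.91 and 5.38 RPKM in HT leaves, against 0.178, 0.172 and 0.239 RPKM in NT leaves (log2 4.92 ± 0.73, adjusted p = 0.0015). Laccase PGSC0003DMG400015484 had 1.60, 0.296 and 0.529 RPKM in HT leaves, against 0.0178, 0.0147 and 0.0326 RPKM in NT leaves (log2 5.16 ± 0.90, adjusted p = 0.0022). The 2 others that rose, PGSC0003DMG400008898 and PGSC0003DMG400008826, changed by 4.0 ± 0.90 and 3.50 ± 0.89 on the log2 scale. In all 4 the HT libraries were above NT and HT replicate 1 was highest, and without it the log2 changes were 4.21, 4.19, 3.12 and 2.67. Without NT replicate 2 that of PGSC0003DMG400008826 was 4.44.

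The laccase of highest level was lower in HT leaves. PGSC0003DMG400021966 had 0.391, 1.37 and 12.1 RPKM in HT leaves, against 99.9, 243 and 5.40 RPKM in NT leaves (log2 -4.65 ± 1.55, adjusted p = 0.019). Its groups overlapped, since HT replicate 3 exceeded NT replicate 3. The log2 change was -7.04 without HT replicate 3 and -3.51 (adjusted p = 0.066) without NT replicate 2. The summed level of the 7 listed transcripts with senescence in their name was also lowest in NT replicate 3 among the NT libraries. It was 35.6, 45.9 and 53.6 CPM in HT libraries and 1301, 1409 and 136 CPM in NT libraries, with 3 of the 7 higher and 4 lower in HT leaves. The median transcript of that list was not low in NT replicate 3 (log2 against the NT mean of -0.08, 0.0 and -0.08 in the NT libraries), so the sum reflects the abundant ones. The part of that difference between libraries in the laccase values was not tested. Laccase 90a PGSC0003DMG400027168 had 0.0169, 0.0436 and 0.0487 RPKM in HT leaves, against 0.778, 2.54 and 0.324 RPKM in NT leaves (log2 -5.02 ± 0.96, adjusted p = 0.0028), and a log2 change of -3.87 without NT replicate 2. Laccase PGSC0003DMG400000684 had 0.0352, 0 and 0.0338 RPKM in HT leaves, against 0.687, 1.62 and 0.722 RPKM in NT leaves (log2 -5.42 ± 1.0, adjusted p = 0.0026), and a log2 change of -4.83 without HT replicate 2. Both were under 0.05 RPKM in all HT libraries. Laccase PGSC0003DMG402023951 had 0.0523, 0.293 and 0.285 RPKM in HT leaves, against 0.610, 0.889 and 2.24 RPKM in NT leaves (log2 -2.56 ± 0.82, adjusted p = 0.016), and did not pass without NT replicate 3 (log2 -1.83, adjusted p = 0.066). Laccase 90c PGSC0003DMG401027116 had 0.979, 1.40 and 1.43 RPKM in HT leaves, against 2.18, 7.43 and 2.78 RPKM in NT leaves (log2 -1.70 ± 0.57, adjusted p = 0.019), and did not pass without NT replicate 2 (log2 -0.97, adjusted p = 0.10).

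**Figure D2:**
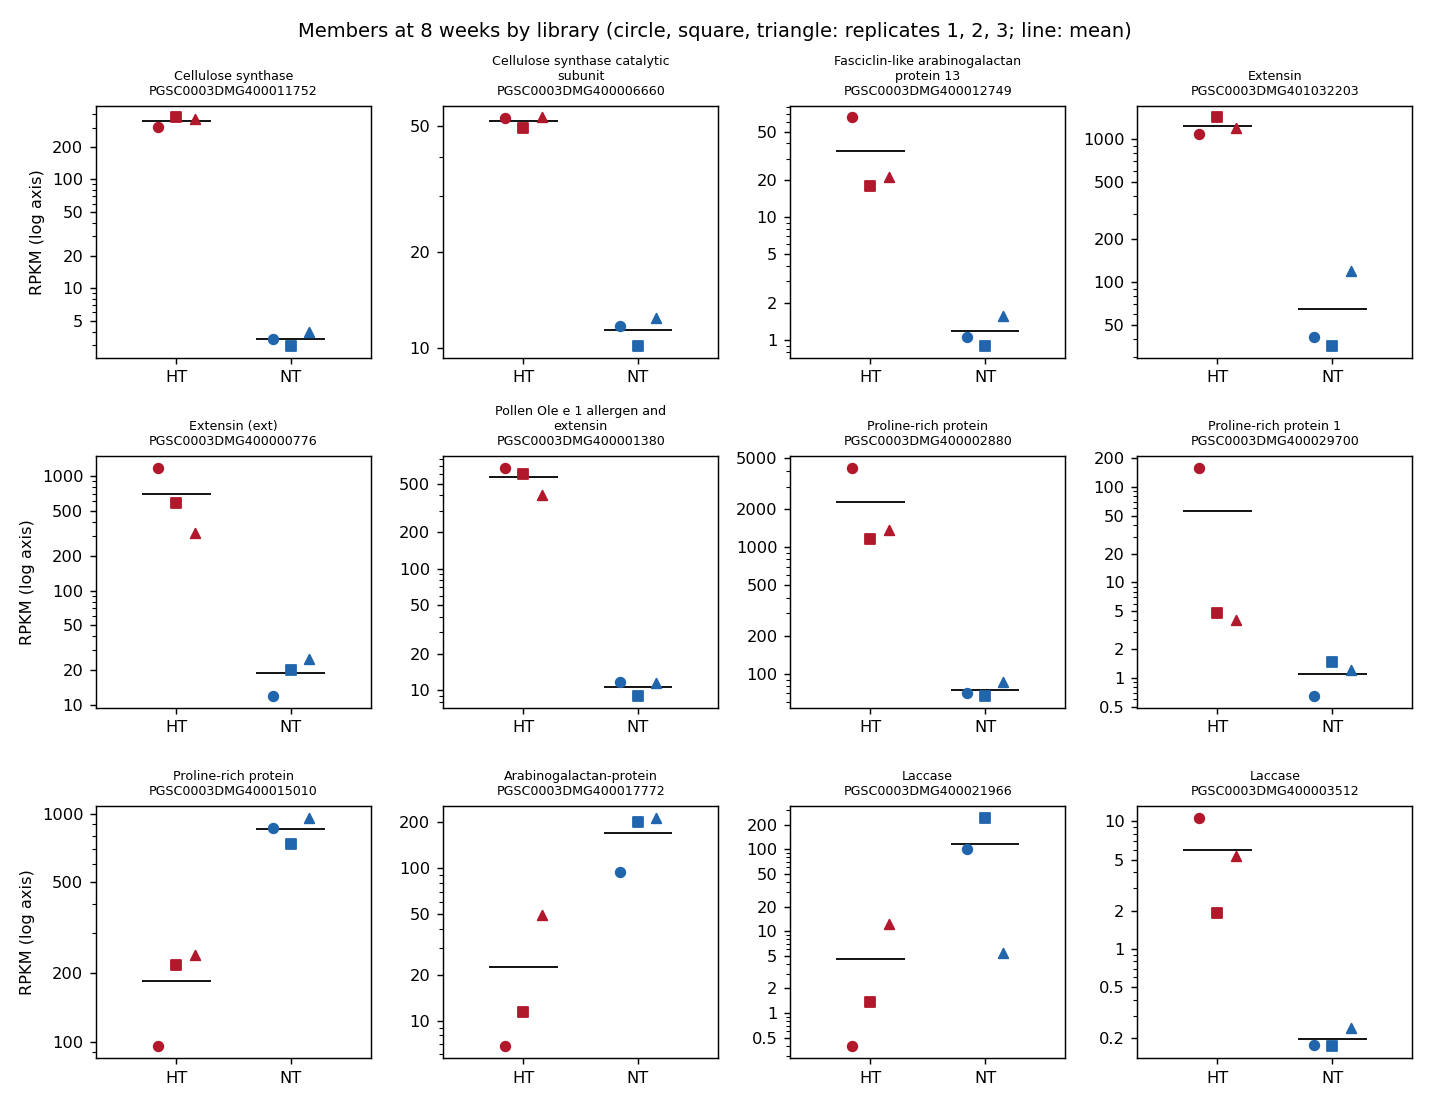
RPKM on log axes for 12 members at 8 weeks, HT on the left and NT on the right of each panel. Circles, squares and triangles are replicates 1, 2 and 3 and the line is the group mean. Cellulose synthase PGSC0003DMG400011752 sits at 306 to 371 RPKM in HT leaves and 2.94 to 3.93 RPKM in NT leaves, while proline-rich protein 1 PGSC0003DMG400029700 has its first HT library far above the other HT libraries, and laccase PGSC0003DMG400021966 overlaps between the groups.

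The rises at 8 weeks were uneven over the HT libraries. On the log2 scale over the NT mean, the members' median was 3.0, 1.53 and 1.85 in HT replicates 1, 2 and 3, and that of all listed transcripts was 1.72, 1.16 and 1.32. HT replicate 1 was the highest HT library for 86 of 127 members (67.7%) and for 46.5% of all listed transcripts, and for 75 of the 88 members called higher. Among the 26 members called lower HT replicate 1 was the farthest below the NT mean, at -3.16 with the other 2 at -2.31 and -2.08. Other transcripts moved with this library. The calls below stand beside 59.3% higher and 38% lower of all listed transcripts tested. The 69 listed markers of dividing cells (cyclins, histones, kinesins) summed to 1257, 388 and 387 CPM in HT libraries and 239, 284 and 277 CPM in NT libraries, 65 of them higher and 1 lower, and their median lay 3.56, 1.20 and 1.26 above the NT mean. The 40 mesophyll markers had 40 higher and medians of 2.91, 1.42 and 1.76. The 6 epidermis and cuticle markers had 6 higher and summed to 76, 33.9 and 48.2 CPM in HT libraries and 4.25, 4.56 and 9.27 CPM in NT libraries. The 9 xylem and secondary wall markers had 7 higher and 2 lower and summed to 142, 121 and 167 CPM in HT libraries and 149.8, 243 and 532 CPM in NT libraries. The part of these cell types in the members' values was not tested. Without HT replicate 1, 102 of the 114 called members were still called and none changed sign, the fold change of 43 moved by over 1.5 times, and the median log2 change of the members called higher was 2.56, against 3.60 with it.

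**Figure D3:**
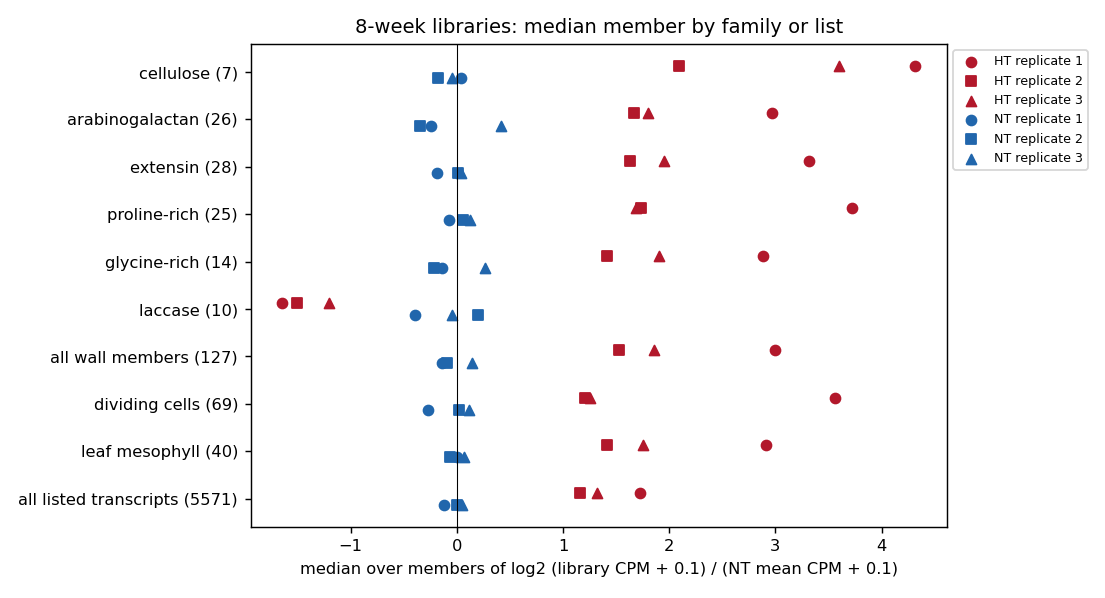
Median over members of log2 library CPM over the NT mean CPM (0.1 CPM added to each), for 6 wall families, all wall members, markers of dividing cells and mesophyll, and all listed transcripts at 8 weeks, with the number of transcripts in brackets. Red points are HT and blue points NT libraries, and circles, squares and triangles are replicates 1, 2 and 3. HT replicate 1 lies farthest right for the wall members (3.0) and for the markers of dividing cells (3.56), and laccases lie left of 0 in the HT libraries.

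Other genes of wall building at 8 weeks were taken from lists of product names that hold no member. Their counts stand beside 59.3% higher and 38% lower of all listed transcripts tested, or 22.8% and 40.7% with DESeq2's size factors. All 4 listed transcripts of proline hydroxylation and lipid anchoring, the steps that make arabinogalactan and extensin backbones ready for sugars and membrane anchoring, were higher, with a median log2 change of 3.46, and 2 of them with DESeq2's size factors. Endoglucanases, which cut glucan chains, had 10 higher and 2 lower of 12 tested (median 2.96), and 6 higher and 2 lower with DESeq2's size factors. Pectin, expansin and xyloglucan remodelling genes had 53 higher and 17 lower of 73 tested (median 2.69), and 33 higher and 19 lower with the size factors. Cytoskeleton and secretion genes had 13 higher and 5 lower of 18 tested (median 1.80), a split that became 4 higher and 5 lower with the size factors. Nucleotide sugar genes, which supply the precursors of wall polymers, had 11 higher and 12 lower of 23 tested (median -1.55), and lignin enzymes 5 higher and 7 lower of 12 tested (median -1.86). The last 2 lists were near an even split, as the laccases were. With DESeq2's size factors the nucleotide sugar list had 2 higher and 12 lower and the lignin list 3 higher and 8 lower.

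At 3 weeks the list was shorter, and more of its wall members were lower than higher in HT leaves. Of 26 listed members 24 were tested, with 9 higher, 12 lower and 3 not called. In that test 97.5% of the 1280 listed transcripts tested passed, 60.3% higher and 37.2% lower, while 37.5% of the tested members were higher. The median log2 change was -1.58 over the tested members and 1.66 over all listed transcripts. The split depended on the scaling, with 10 higher and 10 lower on the library totals alone, 6 higher and 14 lower by TMM factors, and 1 higher and 14 lower by DESeq2's size factors, where 12.2% of all listed transcripts were higher and 39.8% lower. The groups did not overlap in 10 members with HT above NT and 10 with HT below NT, against 59.4% and 30.5% of all listed transcripts. Members made up 0.0228%, 0.0283% and 0.0285% of the counts in HT libraries and 0.0642%, 0.0642% and 0.0632% in NT libraries. Levels were low, with 14 of 26 members under 1 RPKM on average in HT leaves and 13 in NT leaves.

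Glycine-rich proteins were the main family that fell at 3 weeks, 7 of 8 lower and 1 higher with no overlap in any. Lack of overlap was common in the whole list, with HT below NT in 30.5% and above it in 59.4% of the listed transcripts. Glycine-rich cell wall structural protein 1 PGSC0003DMG400028955 had 24.9, 31.2 and 34.7 RPKM in HT leaves, against 106, 95.3 and 85.7 RPKM in NT leaves (log2 -1.66 ± 0.23, adjusted p = 0.0012). Glycine-rich protein TomR2 PGSC0003DMG400017550 had 0.661, 1.40 and 1.19 RPKM in HT leaves, against 14.1, 13.1 and 11.6 RPKM in NT leaves (log2 -3.58 ± 0.37, adjusted p = 0.00050), the largest fall among the members called. The NT libraries were close to each other in both, while the HT libraries of the TomR2 transcript were more spread, with replicate 1 lowest. A second TomR2 transcript, PGSC0003DMG400002108, had 10.6, 9.70 and 11 RPKM in HT leaves, against 35.3, 30.2 and 26.3 RPKM in NT leaves (log2 -1.55 ± 0.25, adjusted p = 0.0016). Another, PGSC0003DMG400017537, had 0.403, 0.182 and 0.110 RPKM in HT leaves, against 1.39, 0.726 and 1.03 RPKM in NT leaves (log2 -2.16 ± 0.54, adjusted p = 0.0071), with a log2 change of -2.82 without HT replicate 1. Glycine-rich cell wall structural protein transcript PGSC0003DMG401028957 had 0.632, 0.743 and 0.736 RPKM in HT leaves, against 1.86, 3.59 and 2.48 RPKM in NT leaves (log2 -1.91 ± 0.35, adjusted p = 0.0023). The exception, glycine-rich cell wall structural protein 1.8 PGSC0003DMG400031523, was higher in HT leaves, with 2.14, 4.15 and 1.61 RPKM in HT leaves, against 0.984, 0.938 and 0.850 RPKM in NT leaves (log2 1.51 ± 0.41, adjusted p = 0.0093), a call that DESeq2's size factors did not make (adjusted p = 0.48).

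A pair of abundant members of other families fell at 3 weeks as well. Fasciclin-like arabinogalactan protein 1 PGSC0003DMG400009400 had 73.1, 100.3 and 92.1 RPKM in HT leaves, against 186, 371 and 386 RPKM in NT leaves (log2 -1.83 ± 0.30, adjusted p = 0.0018). Its log2 change was -2.10 without NT replicate 1, the lowest of its NT libraries. This transcript was the member of highest level at this age and made up 45.3% of the members' summed CPM in HT leaves and 50.5% in NT leaves. Proline-rich protein PGSC0003DMG400033587 had 61.6, 62.6 and 69.5 RPKM in HT leaves, against 179.9, 195 and 177 RPKM in NT leaves (log2 -1.51 ± 0.19, adjusted p = 0.0010), with the libraries of each group close together. GAS31 PGSC0003DMG400031105 had 0.595, 0.661 and 0.751 RPKM in HT leaves, against 0.641, 2.90 and 2.58 RPKM in NT leaves (log2 -1.61 ± 0.56, adjusted p = 0.024). Its groups overlapped, since NT replicate 1 lay among the HT libraries, and the call was lost without HT replicate 1, 2 or 3, NT replicate 2 or NT replicate 3 (largest adjusted p = 0.079). A conserved hypothetical proline rich protein, PGSC0003DMG400038447, chosen after its values were seen, had 0, 0.547 and 0.289 RPKM in HT leaves, against 1.97, 0.372 and 2.09 RPKM in NT leaves (log2 -2.40 ± 1.01, adjusted p = 0.047), and the call was lost without HT replicate 1 or 3 or NT replicate 1 or 3 (largest adjusted p = 0.13), with log2 changes of -1.80 without HT replicate 1 and -3.35 without HT replicate 2. Protein COBRA PGSC0003DMG400024530 had 0.205, 0.105 and 0.0922 RPKM in HT leaves, against 0.245, 0.808 and 0.365 RPKM in NT leaves (log2 -1.80 ± 0.57, adjusted p = 0.017), and the call was lost without HT replicate 2, HT replicate 3 or NT replicate 2, in the last case with a log2 change of -1.17 (adjusted p = 0.065).

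The members that rose at 3 weeks were low in both groups. Arabinogalactan protein PGSC0003DMG400003772 had 2.14, 2.85 and 2.33 RPKM in HT leaves, against 0.103, 0.300 and 0.154 RPKM in NT leaves (log2 3.69 ± 0.47, adjusted p = 0.00097), the largest rise and the 1 call of a higher member that held with DESeq2's size factors (adjusted p = 0.0021). Laccase PGSC0003DMG400021966 had 2.55, 6.74 and 5.05 RPKM in HT leaves, against 1.66, 0.380 and 0.568 RPKM in NT leaves (log2 2.46 ± 0.62, adjusted p = 0.0074), with a log2 change of 3.33 without NT replicate 1. Both had HT libraries above their NT libraries. Another COBRA transcript, PGSC0003DMG400014428, had 0.684, 0.741 and 0.672 RPKM in HT leaves, against 0.231, 0.119 and 0.313 RPKM in NT leaves (log2 1.66 ± 0.41, adjusted p = 0.0068). Alpha-xylosidase PGSC0003DMG400008345 had 0.328, 0.186 and 0.274 RPKM in HT leaves, against 0.0791, 0.107 and 0.0392 RPKM in NT leaves (log2 1.79 ± 0.48, adjusted p = 0.0089). Extensins PGSC0003DMG400000780, PGSC0003DMG400000782 and PGSC0003DMG400022517 changed by 2.28 ± 0.66, 1.92 ± 0.42 and 1.53 ± 0.41 on the log2 scale, the first by 3.43 without NT replicate 1. None of these last 5 had a mean above 1 RPKM in either group. Vegetative cell wall protein gp1 PGSC0003DMG400014129 had 0.253, 0.231 and 0.344 RPKM in HT leaves, against 0.123, 0.0757 and 0.0885 RPKM in NT leaves (log2 1.52 ± 0.41, adjusted p = 0.0094).

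A pair of extensins at 3 weeks rested on 1 library. Extensin PGSC0003DMG400000794 had 5.32, 2.88 and 8.57 RPKM in HT leaves, against 199, 2.76 and 3.07 RPKM in NT leaves, and did not pass (log2 -3.61 ± 1.58, adjusted p = 0.054). Extensin PGSC0003DMG400000779 had 9.69, 9.86 and 12.9 RPKM in HT leaves, against 88.4, 9.59 and 8.95 RPKM in NT leaves, and did not pass (log2 -1.72 ± 0.86, adjusted p = 0.081). In both, NT replicate 1 was far above the other 5 libraries, and without it the log2 changes had the other sign, 0.94 (adjusted p = 0.083) and 0.22 (adjusted p = 0.32). Cellulose synthase PGSC0003DMG400034300, the cellulose member of the 3-week list, overlapped between groups and did not pass, with 0.789, 0.208 and 0.334 RPKM in HT leaves, against 0.222, 0 and 0.104 RPKM in NT leaves (log2 2.02 ± 0.97, adjusted p = 0.071). Its log2 change was 3.07 (adjusted p = 0.027) without NT replicate 1 and 1.31 (adjusted p = 0.27) without HT replicate 1, and it passed on library totals alone (adjusted p = 0.040) and with a replicate block (adjusted p = 0.029). Extensin PGSC0003DMG400000781 and leucine-rich repeat extensin 3 PGSC0003DMG400015957 had too few counts to be tested. Among other wall genes at 3 weeks, the pectin, expansin and xyloglucan list had 3 higher and 15 lower of 18 tested. Shares over the whole list were 60.3% higher and 37.2% lower of those tested. The 9 mesophyll markers listed had 4 higher and 5 lower and summed to 2295, 2615 and 2208 CPM in HT libraries and 6524, 6892 and 7414 CPM in NT libraries, and the 5 markers of dividing cells had 2 higher and 3 lower and summed to 28.1, 34.1 and 37.3 CPM in HT libraries and 112, 86.3 and 79.3 CPM in NT libraries. Their part in the members' values was not tested.

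**Figure D4:**
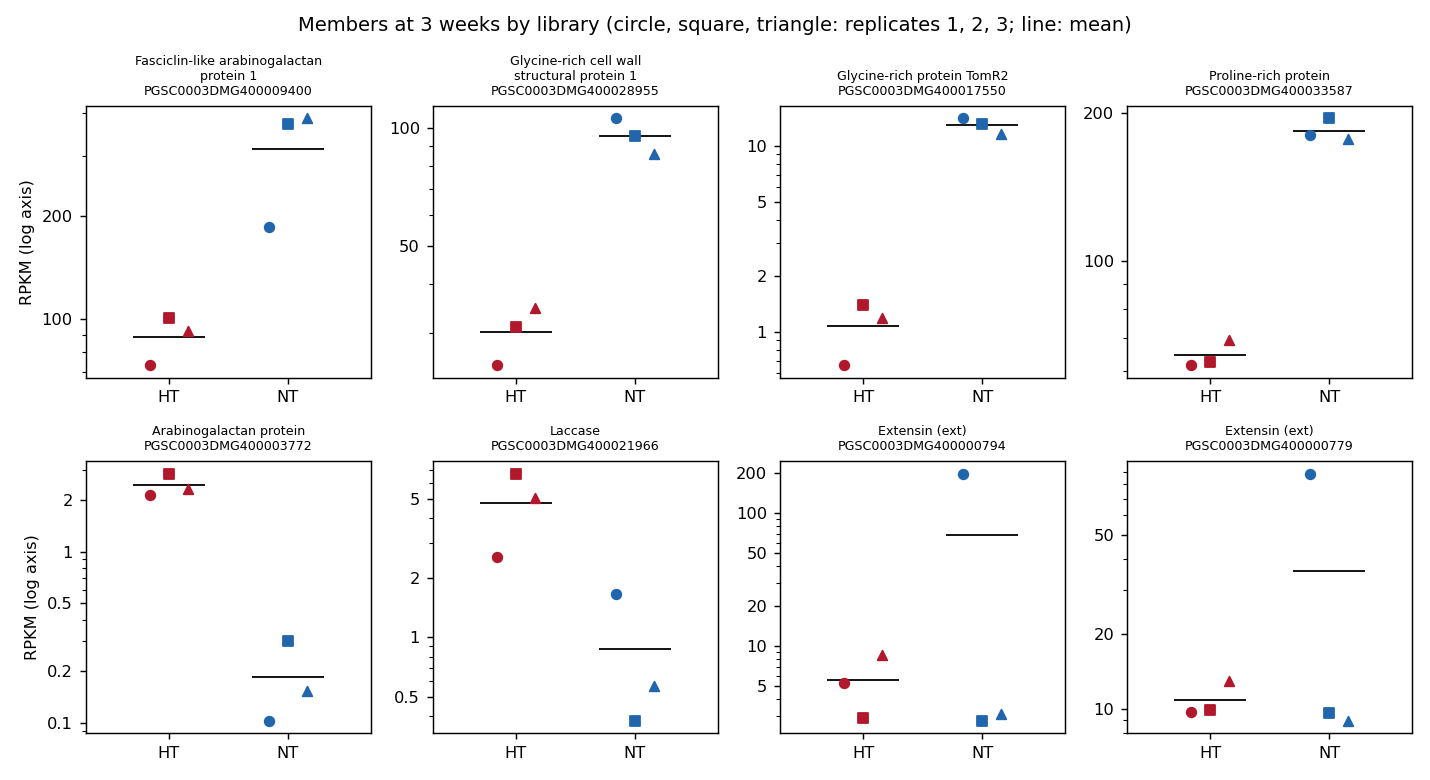
RPKM on log axes for 8 members at 3 weeks, HT on the left and NT on the right of each panel. Circles, squares and triangles are replicates 1, 2 and 3 and the line is the group mean. The top 4 members are lower in all HT libraries, and extensins PGSC0003DMG400000794 and PGSC0003DMG400000779 have 1 NT library, replicate 1, at 199 and 88.4 RPKM, far above the rest.

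The 13 members in both lists have counts in all 12 libraries and allow the ages to be compared. By the tests within each age, 2 were higher in HT leaves at both ages, 3 lower at both, 2 lower at 8 weeks and higher at 3 weeks, and 3 higher at 8 weeks and lower at 3 weeks, while the other 3 were not called or not tested at 1 of the ages. The heat effect (HT over NT) at 8 weeks minus that at 3 weeks passed in 6 of the 13 (edgeR's interaction test, adjusted over 576 shared transcripts), and 33.7% of those transcripts passed. For members called in opposite directions at the 2 ages, a large difference was given by the choice of the lists. Their passing is therefore no finding, here and in the next paragraph, and only the size of the difference can be read. The 3 with a higher heat effect at 8 weeks were the abundant members that fell at 3 weeks. Glycine-rich cell wall structural protein 1 PGSC0003DMG400028955 had 19.4, 1.42 and 3.04 RPKM in HT leaves, against 0.517, 0.358 and 0.454 RPKM in NT leaves at 8 weeks (log2 4.16 ± 1.0, adjusted p = 0.0057, and log2 2.33 without HT replicate 1), and its heat effects differed by 5.82 ± 1.10, adjusted p = 0.0016. Proline-rich protein PGSC0003DMG400033587 had 35.3, 5.14 and 13 RPKM in HT leaves, against 1.23, 2.08 and 2.08 RPKM in NT leaves at 8 weeks (log2 3.31 ± 0.74, adjusted p = 0.0045, and log2 2.33 without HT replicate 1), a difference of 4.82 ± 0.84, adjusted p = 0.0010. Fasciclin-like arabinogalactan protein 1 PGSC0003DMG400009400 had 37, 10.1 and 12.2 RPKM in HT leaves, against 2.67, 3.37 and 6.70 RPKM in NT leaves at 8 weeks (log2 2.22 ± 0.64, adjusted p = 0.011, and log2 1.39 without HT replicate 1), a difference of 4.05 ± 0.82, adjusted p = 0.0024. At 8 weeks their HT libraries were above their NT libraries, and at 3 weeks below.

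Both members with the opposite order, lower in HT leaves at 8 weeks and higher at 3 weeks, were enzymes. For alpha-xylosidase PGSC0003DMG400008345 the heat effects differed by -4.59 ± 0.77, adjusted p = 0.00090, and for laccase PGSC0003DMG400021966 by -7.10 ± 1.89, adjusted p = 0.010. GAS31 PGSC0003DMG400031105 was lower at both ages and more so at 8 weeks, a difference of -2.90 ± 0.94, adjusted p = 0.030, which did not hold when any 1 of 5 libraries was left out (largest adjusted p = 0.074). For arabinogalactan protein PGSC0003DMG400003772, higher at both ages with 1.36, 1.84 and 2.25 RPKM in HT leaves, against 0.252, 0.250 and 0.554 RPKM in NT leaves at 8 weeks (log2 2.36 ± 0.61, adjusted p = 0.0074), the difference was -1.33 ± 0.74, adjusted p = 0.21. For extensin Dif10 PGSC0003DMG400022517, with 0.678, 0.323 and 0.481 RPKM in HT leaves, against 0, 0.0687 and 0 RPKM in NT leaves at 8 weeks (log2 4.22 ± 1.07, adjusted p = 0.0069), the difference was 2.69 ± 1.11, adjusted p = 0.085, and its fitted 8-week log2 change was 7.79 without NT replicate 2, the 1 NT library with counts, a fit against an NT group at 0 and so no bound. COBRA PGSC0003DMG400024530 had a difference of -0.41 ± 0.80, adjusted p = 0.79, and the glycine rich protein-interacting protein PGSC0003DMG400028817 one of -1.68 ± 0.61, adjusted p = 0.052. These 4 did not pass, and extensins PGSC0003DMG400000780, PGSC0003DMG400000782 and PGSC0003DMG400000794 did not pass either.

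Within a temperature, 9 of the 13 shared members passed between the ages in NT leaves and 1 in HT leaves, and the test of the heat effects above is the test of that difference for each member, apart from the constant shift in the totals. That test did not pass for PGSC0003DMG400000782, PGSC0003DMG400022517 and PGSC0003DMG400028817 (adjusted p = 0.055, 0.085 and 0.052), which passed between the ages at NT. The counts at NT and HT therefore do not by themselves show a difference between the temperatures. At NT, 4 members were higher and 5 lower at 8 weeks than at 3 weeks, beside 31.2% and 14.9% of the shared transcripts (46.2% in all). Glycine-rich cell wall structural protein 1 had 0.517, 0.358 and 0.454 RPKM at 8 weeks and 106, 95.3 and 85.7 RPKM at 3 weeks in NT leaves (log2 -7.60 ± 0.96, adjusted p = 4.4e-05). Proline-rich protein PGSC0003DMG400033587 had 1.23, 2.08 and 2.08 RPKM at 8 weeks and 179.9, 195 and 177 RPKM at 3 weeks (log2 -6.52 ± 0.71, adjusted p = 2.3e-05). Fasciclin-like arabinogalactan protein 1 had 2.67, 3.37 and 6.70 RPKM at 8 weeks and 186, 371 and 386 RPKM at 3 weeks (log2 -6.06 ± 0.70, adjusted p = 2.5e-05). These 3 were many times lower in NT leaves at 8 weeks than at 3 weeks, and extensins PGSC0003DMG400000782 (log2 -4.97 ± 1.31, adjusted p = 0.0071) and Dif10 PGSC0003DMG400022517 (log2 -3.52 ± 0.89, adjusted p = 0.0055) were lower too. Higher in NT leaves at 8 weeks were laccase PGSC0003DMG400021966 (log2 7.21 ± 1.58, adjusted p = 0.0021), alpha-xylosidase PGSC0003DMG400008345 (log2 6.28 ± 0.64, adjusted p = 2.3e-05), GAS31 PGSC0003DMG400031105 (log2 4.91 ± 0.76, adjusted p = 0.00016) and the glycine rich protein-interacting protein PGSC0003DMG400028817 (log2 3.34 ± 0.47, adjusted p = 8.2e-05). The levels of an age are scaled within that age, and the tests between ages used library totals alone.

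At HT, 0 of the 13 were higher and 1 was lower at 8 weeks than at 3 weeks, where 5.38% of the shared transcripts were higher, 2.08% lower and 7.47% passed in all. That 1 was fasciclin-like arabinogalactan protein 1, with 37, 10.1 and 12.2 RPKM at 8 weeks and 73.1, 100.3 and 92.1 RPKM at 3 weeks in HT leaves (log2 -2.32 ± 0.59, adjusted p = 0.033), which did not hold when any 1 of 5 libraries was left out. Proline-rich protein PGSC0003DMG400033587 had 35.3, 5.14 and 13 RPKM at 8 weeks and 61.6, 62.6 and 69.5 RPKM at 3 weeks (log2 -2.01 ± 0.58, adjusted p = 0.052), and glycine-rich cell wall structural protein 1 had 19.4, 1.42 and 3.04 RPKM at 8 weeks and 24.9, 31.2 and 34.7 RPKM at 3 weeks (log2 -2.08 ± 0.75, adjusted p = 0.10). Neither passed. The estimates at HT lay between -2.32 and 1.71 over the 13 members, and those at NT between -7.60 and 7.21.

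**Figure D5:**
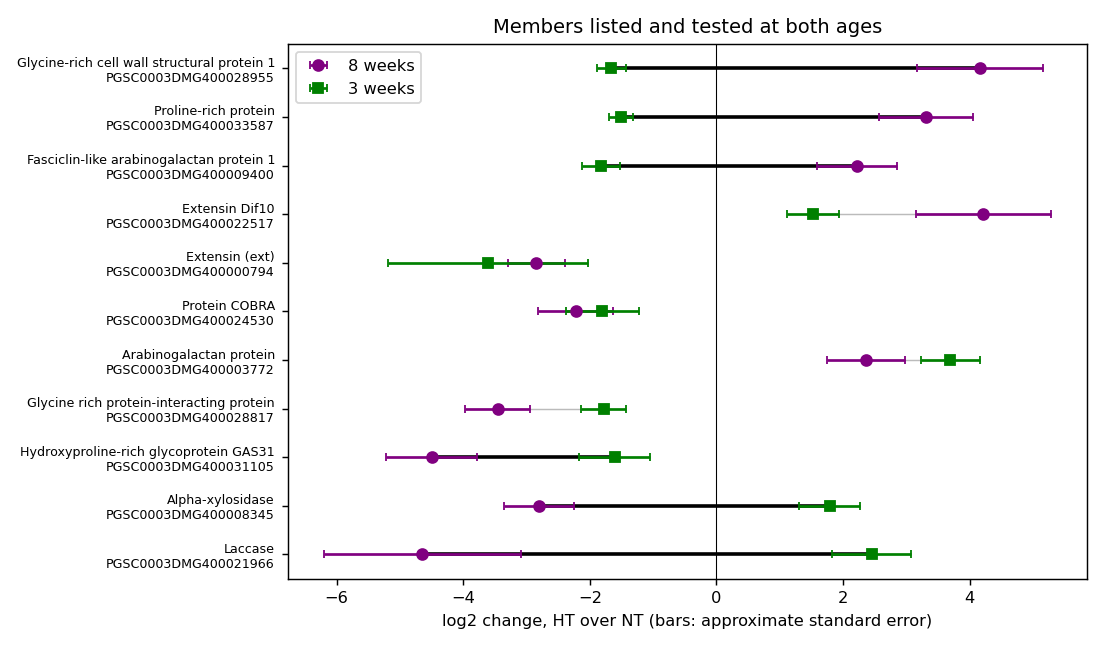
Log2 change of HT over NT at 8 weeks (circles) and 3 weeks (squares) for the 11 members listed and tested at both ages, with standard error bars. A black line joins the ages where the difference between them passed (6 members) and a grey line where it did not. The top 3 members lie right of 0 at 8 weeks and left of 0 at 3 weeks, and the bottom 2, an alpha-xylosidase and a laccase, lie the other way round.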

How the data were processed

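Strand-specific poly(A) libraries were made from the upper 5 leaves, 3 per group, per the labels' protocols. No aligner, counting program or genome build is named (not given in the sources used here). Every test used the raw read counts that the authors deposited for each transcript in each library. The deposited maximum group mean has no unit in the headers and was read as RPKM from its values (group mean count over length and a constant library total). The authors' deposited log2 fold changes, p-values and adjusted p-values, and a signed score (the ratio of HT to NT or minus its inverse), come from a test that the headers do not name. The deposited plain group means of counts are a signal that was not tested. Another deposited table, of 580 shared transcripts, repeated the counts with 0 differences and was not used. The reference gene table held 0 of the listed identifiers, so product names stand as deposited, with no positions or sequences.

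Library totals were solved from the deposited RPKM, length and counts, since the listed transcripts hold a small share of each library, 16.2% to 23.2% at 8 weeks and 1.76% to 2.61% at 3 weeks. The authors' log2 changes differed from those on totals by a constant -0.402 at 3 weeks and -0.0958 at 8 weeks, and this shift was divided equally between the HT and NT totals for the tests of HT against NT, and for RPKM and CPM. Tests between ages used totals without it. Counts were tested with edgeR 4.0.16 (filterByExpr, quasi-likelihood F test, Benjamini-Hochberg over all listed transcripts tested, threshold 0.05) in R 4.3.3, and also with DESeq2 1.42.0. Standard errors were obtained by dividing the size of the log2 change by the square root of F. The tests were checked on simulated data with the same spread for all transcripts and no library set apart. That check therefore does not cover libraries that stand apart, as some do here. Tables were handled with Python 3.11.15, pandas 2.3.3 and numpy 2.4.6.

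Members, families and other lists are patterns on product names, chosen with earlier results of these data known. Named members were those in both lists. Also named were, per family and age, the 4 largest rises and falls among calls whose groups did not overlap and whose higher group averaged 10 or more counts, and the 2 members of highest level. Members not called or not tested were named where they numbered 5 or fewer. The text marks any other named member as chosen on its values. Alternatives were TMM and DESeq2 scaling, totals alone, no count filter, DESeq2's Wald test, adjustment over the authors' number of tests (34088 at 8 weeks, 33777 at 3 weeks), a replicate block and leaving out each library.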

Additional observations from a re-analysis of the deposited data

Results flagged for a closer look

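The heat effect on the log2 scale at 8 weeks minus that at 3 weeks passed edgeR's interaction test in 6 members, each of which is a difference between the 2 ages in the same contrast. In all of these but GAS31 the directions at the 2 ages were opposite, so a large difference was given by the choice of the lists. The size of the difference is what can be read, and it follows. It was 5.82 for glycine-rich cell wall structural protein 1 PGSC0003DMG400028955, 4.82 for proline-rich protein PGSC0003DMG400033587 and 4.05 for fasciclin-like arabinogalactan protein 1 PGSC0003DMG400009400. It was -7.10 for laccase PGSC0003DMG400021966, -4.59 for alpha-xylosidase PGSC0003DMG400008345 and -2.90 for hydroxyproline-rich glycoprotein GAS31 PGSC0003DMG400031105. Leaving out any 1 of the 12 libraries kept the call in the first 5 of these members, and the estimates then lay between 3.99 and 6.32, 3.84 and 5.26, 3.22 and 4.54, -9.50 and -5.96, and -4.94 and -4.20.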

How the results depend on the processing

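No called member changed sign between HT and NT under any alternative. DESeq2's size factors moved the log2 changes of the listed transcripts by a median of -1.28 at 8 weeks and -1.21 at 3 weeks. The median move was -0.065 and -0.51 with TMM factors, and 0.096 and 0.40 with totals alone. With the size factors 54 members were higher at 8 weeks, against 88, and 1 at 3 weeks, against 9. Adjusted over the authors' number of tests, 62 were higher and 14 lower at 8 weeks, against 88 and 26. At 3 weeks 1 was then higher and 5 lower, against 9 and 12. DESeq2's Wald test gave 87 higher and 28 lower at 8 weeks and 10 and 13 at 3 weeks. Leaving out 1 library gave 77 to 91 higher and 21 to 27 lower at 8 weeks, and 9 to 11 higher and 9 to 12 lower at 3 weeks. In HT leaves at 8 against 3 weeks, 0 members were higher (0 to 1 with a library left out) and 1 was lower (0 to 3 with a library left out). That 1 became 2 with TMM factors, 0 with the size factors, 0 with a replicate block and 0 at an adjusted p under 0.01. The cause of these changes was not tested. Correlations of same-numbered libraries' deviations ran from -0.068 to 0.039 at 8 weeks and from -0.068 to 0.188 at 3 weeks. They do not settle whether replicate numbers pair the samples, which the labels do not say. With the replicate block 81 members were higher and 27 lower at 8 weeks, and 10 and 11 at 3 weeks. Transcripts with few counts limit the 13 untested members.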
